A study of Homo sapiens with 4 samples.

Results

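Chromatin immunoprecipitation followed by sequencing (ChIP-seq) with an antibody against FLAG gave 9466 peaks in A549 cells, a lung adenocarcinoma line that carried ATOH8 from a stably integrated retrovirus. The regions described here are the 304 wide FLAG peaks that lay in or near genes and away from SMAD3 peaks. They were chosen by measured values of the FLAG list. A member had a width of 450 bp or more and lay on chromosomes 1 to 22 or X. It overlapped no peak of the SMAD3 ChIP and had no SMAD3 summit within 10 kb. Its own summit, the position of highest pileup, lay inside a RefSeq protein-coding gene or within 10 kb of one. Of 9094 FLAG peaks on these chromosomes, 890 were at least 450 bp wide. A SMAD3 peak overlapped 41 of the 890, and for 131 more a SMAD3 summit lay within 10 kb. Another 414 lay over 10 kb from any protein-coding gene, which left the 304.

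The study comprised 4 libraries, all from A549 cells grown in serum-containing medium and transduced with ATOH8: a FLAG ChIP, a SMAD3 ChIP and 1 input (sonicated chromatin without antibody) for each. No group had a second replicate, so the values below describe 1 FLAG library against its input and carry no test. The labels give only stable transduction, and not whether the cells were 1 clone. A FLAG ChIP from cells without tagged ATOH8 was not analysed here. Peak lists hold no expression level, so the cell type was not checked against markers. The FLAG ChIP kept 17133946 tags after filtering and its input 20785894, per the file headers.

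ATOH8 belongs to the basic helix-loop-helix family. Proteins of this family bind DNA as dimers, usually at the E-box, a short palindrome written CANNTG whose middle pair of bases differs between family members. SMAD3 is brought to the nucleus by TGF-beta receptor signalling and binds short motifs that contain CAGAC. A peak caller reports where tags pile up above the local background, and a wide peak arises where that excess extends over neighbouring positions. Here the caller joined stretches up to 114 bp apart, the tag length, and the shortest peak it could report was 241 bp, the modelled fragment length, per the file headers.

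Some members covered the 250 bases before an annotated start of a protein-coding gene, and these stretches could be read from RefSeq's promoter table (GRCh38.p14). There were 21 such stretches of 18 genes, lying at least in part inside 19 members. Several of the stretches lay wholly inside a member. The 4 shown here, all of them wholly inside, come from the members of highest fold. Each runs 5′ to 3′ on the gene's own strand up to the base before the start, and capitals mark every CANNTG. KCNMA1 lies on the minus strand (chr10:77350762-77351011), ELOVL5 on the minus strand (chr6:53348951-53349200), TTYH2 on the plus strand (chr17:74213321-74213570) and PPFIBP2 on the plus strand (chr11:7605484-7605733).
KCNMA1: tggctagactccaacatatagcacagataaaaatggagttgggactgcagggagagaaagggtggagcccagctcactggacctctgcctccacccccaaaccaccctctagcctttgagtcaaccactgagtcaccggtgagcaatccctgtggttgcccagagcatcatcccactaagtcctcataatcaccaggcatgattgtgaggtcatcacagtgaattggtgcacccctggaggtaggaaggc
ELOVL5: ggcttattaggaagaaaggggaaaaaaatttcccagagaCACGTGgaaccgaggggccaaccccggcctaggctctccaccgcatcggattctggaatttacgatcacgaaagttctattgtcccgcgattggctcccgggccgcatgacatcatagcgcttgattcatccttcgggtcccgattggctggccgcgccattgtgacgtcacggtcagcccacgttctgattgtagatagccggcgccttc
TTYH2: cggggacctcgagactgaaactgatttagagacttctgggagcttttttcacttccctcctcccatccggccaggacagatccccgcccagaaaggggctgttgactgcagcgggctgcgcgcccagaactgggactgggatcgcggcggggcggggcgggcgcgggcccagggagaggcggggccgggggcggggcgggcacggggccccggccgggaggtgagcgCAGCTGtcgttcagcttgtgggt
PPFIBP2: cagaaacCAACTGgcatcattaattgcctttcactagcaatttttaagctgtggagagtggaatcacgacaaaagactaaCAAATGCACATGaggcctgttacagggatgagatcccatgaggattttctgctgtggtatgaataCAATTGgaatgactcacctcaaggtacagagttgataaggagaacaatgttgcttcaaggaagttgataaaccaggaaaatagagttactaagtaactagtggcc

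The 4 stretches differed in E-boxes. KCNMA1 held none, ELOVL5 held 1 (CACGTG) that began 211 bases before the start, TTYH2 held 1 (CAGCTG) that began 23 bases before it, and PPFIBP2 held 4, which began 243, 170, 164 and 105 bases before its start and differed from each other in their middle bases. KCNMA1 also held 2 copies of TGANTCA, a pattern bound by AP-1 factors, while ELOVL5 and PPFIBP2 held 1 each and TTYH2 none. Guanine and cytosine made up 53.6% of the KCNMA1 stretch, 56.0% of that of ELOVL5, 70.4% of that of TTYH2 and 40.4% of that of PPFIBP2. These matches describe the letters and are not measured binding sites.

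Across all 21 stretches, 12 (57.1%) held a CANNTG, against 58.1% of 22156 stretches of the same length before protein-coding starts in the table. Motifs were searched on both strands over all 250 bases, including bases outside the member. At NCAPD2, for example, only 37 of the bases lay inside it. The next 3 motifs are forms of CANNTG. The form CAGATG stood in 4 of the 21 stretches (19.0%), against 10.2% of all stretches in the table. The form CAGCTG stood in 1 (4.76%, with 13.7% of all stretches as its background). The form CATATG stood in none of the 21, and in 1.78% of all stretches. The SMAD-type letters CAGAC stood in 8 (38.1%), close to their share among all stretches of 37.3%. The AP-1 pattern TGANTCA stood in 4 (19.0%), where 5.36% of all stretches hold it. The box CCAAT, which NF-Y binds, stood in 9 (42.9%), where 32.7% of all stretches hold it. SH3BP4, ABCC10 and AHCYL2 gave more than 1 stretch each, and those of AHCYL2 overlap. None of these shares was tested.

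The member of highest fold covered an end of HDX, a homeobox gene, and was also the widest of the 304. It spanned 4378 bp (chrX:84501296-84505673), with 354 tags at its summit and a fold enrichment of 52.4 over the local background. Next came a peak of 1946 bp inside CP, which encodes the copper-carrying plasma protein ceruloplasmin (chr3:149178685-149180630, 118 tags, 37.4-fold). Another lay 6877 bp upstream of KPNA3, an importin alpha that carries proteins into the nucleus (chr13:49798505-49800997, 2493 bp, 75 tags, 30.05-fold). Both remaining members above 20-fold lay inside genes. That in THSD4, a gene of extracellular microfibrils, had 115 tags and a fold of 27.8 (chr15:71294731-71296564), and that in IQSEC2, an exchange factor for ARF GTPases, had 54 tags and a fold of 21.7 (chrX:53265351-53266742).

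Below these, 13 members stood between 10-fold and 15-fold, so that 18 of the 304 reached 10-fold. SAMD4A, which encodes an RNA-binding repressor of translation, held a peak of 2043 bp at 14.5-fold (chr14:54577829-54579871). TGFBR3, the gene of the TGF-beta co-receptor betaglycan, held the second widest member, 2767 bp with 44 tags at 12.96-fold (chr1:91838950-91841716). KCNMA1, the pore-forming subunit of the BK potassium channel, had the same 44 tags and 12.96-fold over 1334 bp. COA1, an assembly factor of cytochrome c oxidase, held a peak of 1124 bp at 12.9-fold. FMNL2, a formin that elongates actin filaments, held one of 916 bp at 11.5-fold. CDH1, which encodes E-cadherin, the adhesion protein of epithelial junctions, held one of 1005 bp with 51 tags at 10.2-fold (chr16:68739549-68740553). The other members above 10-fold lay in or near ELOVL5, TTYH2, IL22RA2, MAP3K14, ITIH2, SEMA3A and ENAH, with 25 to 36 tags each.

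**Figure D1:**
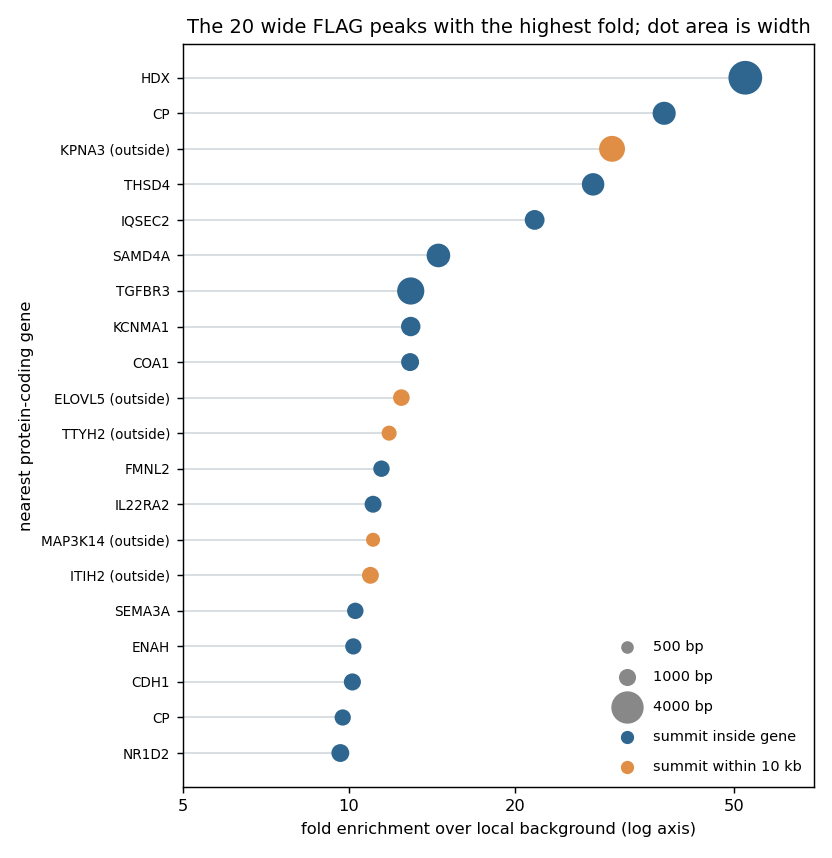
Fold enrichment over the local background (log axis) of the 20 members with the highest fold, by nearest protein-coding gene; dot area is proportional to peak width, and colour marks whether the summit lay inside the gene or within 10 kb of it. HDX stands at 52.4-fold and the 20th, NR1D2, at 9.66-fold, and CP appears with 2 of its 3 members.

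Most members were far weaker than these. The median member was 563.5 bp wide, with a pileup of 10 tags (range 6 to 354) and a fold of 3.81 (range 2.02 to 52.4). Of the 304, 94 reached 5-fold, 98 (32.2%) had 8 tags or fewer at the summit, and 7 had 50 or more. A q under 0.05 was given by the authors' caller to 160 members (52.6%, 95% Clopper-Pearson interval 46.9 to 58.4%, counting error only). Among all FLAG peaks on the same chromosomes the share was 24.8%. Since width and q come from the same contrast, nothing is read from that difference. None of the 98 members with 8 tags or fewer had a q under 0.05, while 45 of 45 with 21 tags or more did.

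Wider members had more tags. Between 450 and 499 bp the median pileup was 8 tags and 22 of 82 members (26.8%) had a q under 0.05. From 600 to 799 bp the median was 12 tags, with 53 of 77 (68.8%), and from 1000 bp upwards it was 24 tags, with 25 of 25. Across the 304 members, which share 1 library, Spearman's rho of width with pileup was 0.618 and with fold 0.579, given as a description. The order was loose in places. A member in UGDH reached 22 tags over 513 bp (6.62-fold), while one in UACA extended over 966 bp with 12 tags (3.03-fold, −log10 q of 0.733). CTDP1, a phosphatase of RNA polymerase II, held a member of 1465 bp with only 13 tags (5.53-fold).

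**Figure D2:**
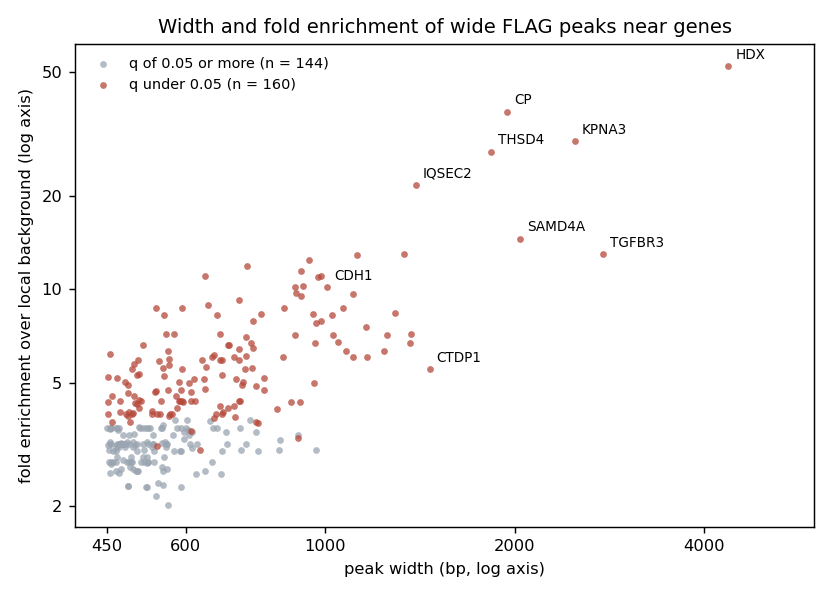
Peak width in bp against fold enrichment (both log axes) for the 304 members, 1 point each, coloured by whether the q of the authors' caller was under 0.05 (160 members) or not (144). Points rise to the right, from about 3-fold near 450 bp to 52.4-fold at HDX, and TGFBR3 and CTDP1 lie low for their width.

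The width threshold cut through a dense part of the list. Just inside it lay peaks in ADAM17 (450 bp, 8 tags, 3.56-fold), DPYSL3 (451 bp, 7 tags, 3.14-fold) and XKR7 (452 bp, 15 tags, 5.22-fold). Just outside it lay peaks in SEMA3A (449 bp, 7 tags, 3.16-fold), PELI2 (448 bp, 9 tags, 3.59-fold) and ITGA9 (448 bp, 8 tags, 3.40-fold). There were 21 peaks from 450 to 459 bp and 27 from 440 to 449 bp.

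The local background that the caller had used, computed from pileup and fold, was low under nearly all members. It had a median of 1.65 tags, and 103 members (33.9%) stood at its lowest value in the list, 1.53 tags. All groups of FLAG peaks compared here shared this minimum. It is therefore read as a floor of the calculation and not as a measured input level, and the input under these 103 may have been lower. Only HDX and BATF, an AP-1 family factor, exceeded 5 tags, both at 5.77. AHCYL2 and HNRNPUL1 followed at 4.95, and CDH1 was among several members at 4.12. The 51 tags in CDH1 thus gave a lower fold (10.2) than the 54 tags in IQSEC2 (21.7), where the background was at that lowest value. Among the wide FLAG peaks over 10 kb from genes, 62 of 414 (15.0%) had a background of 5 tags or more. Narrower FLAG peaks near genes had a low background as well. Their median was 1.59 tags, and 7 of 3226 (0.217%) had 5 tags or more.

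Members at gene starts were few but included some of the strongest. A summit lay within 1 kb of a start in 32 of 304 members (10.5%, 95% interval 7.31 to 14.5%). The same rule held for 245 of 3226 narrower FLAG peaks in or near genes and away from SMAD3 (7.59%, 6.70 to 8.56%). These intervals overlap. Starts came from the promoter table for 25 of the 32. For the other 7, which include HDX, the table gave no strand and either end of the gene was taken. Of the 32, 21 covered the start itself, 16 had a q under 0.05 and 7 reached 5-fold, against 144 and 87 of the 272 members away from starts.

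The ELOVL5 peak had its summit 94 bp upstream of the start of this elongase of polyunsaturated fatty acids (chr6:53348522-53349464, 32 tags, 12.5-fold). The TTYH2 peak lay 138 bp upstream of the start of this member of the tweety family of membrane proteins (chr17:74213110-74213861, 36 tags, 11.8-fold). At KCNMA1 (chr10:77350083-77351416) and PPFIBP2, which encodes liprin beta 2 (chr11:7605411-7606175, 23 tags, 5.59-fold), the summits lay 15 and 65 bp from starts inside the longer gene model. ARHGAP11B, a gene found only in the human lineage, had a peak 491 bp upstream (12 tags, 4.91-fold). Its reads may be shared with the paralog ARHGAP11A, so its position is uncertain.

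SH3BP4, a regulator of endocytosis, had members at 2 starts that lie inside its longer gene model. Their summits lay 149 and 74 bp from these starts, with 10 tags at 4.35-fold (chr2:234981142-234981752) and 9 tags at 3.78-fold (chr2:235027108-235027865), and the second did not have a q under 0.05 (−log10 q of 1.21). Start members elsewhere with a q under 0.05 were at XKR7 (5.22-fold), LOC124901868 (5.62-fold), ENTPD1 (4.35-fold), ASPH (4.27-fold), DYRK3, a kinase that dissolves condensates (4.06-fold), RTN4 (3.95-fold), TDRP (3.95-fold), TXNDC11 (3.84-fold) and AHCYL2 (3.03-fold). At XKR7, LOC124901868, ASPH and TDRP strand was not known, so the gene end used may not be the start. NCAPD2, a condensin subunit needed in mitosis, had its summit 19 bp from the start, but with 9 tags and a −log10 q of 1.05. This summit also lay inside the gene MRPL51. ERF, an ETS-family repressor, had 14 tags 6 bp from a start, at 3.21-fold with a −log10 q of 1.29.

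Most members lay inside genes, as narrower peaks did. Both groups hold only summits inside or within 10 kb of a gene, so that rule partly sets these high shares. The 414 wide FLAG peaks over 10 kb from genes, under the same SMAD3 rule, are not counted in them. The summit was inside a protein-coding gene for 246 of 304 (80.9%, 95% interval 76.0 to 85.2%) and for 2732 of 3226 narrower peaks (84.7%, 83.4 to 85.9%). Among members the share was 69 of 82 between 450 and 499 bp and 18 of 25 from 1000 bp upwards. It fell to 66.3% among the 83 members with a −log10 q of 5 or more. The other 58 summits lay 1 to 9936 bp outside, with a median of 5104.5 bp. Where strand was known, 23 lay upstream and 21 downstream. Upstream members of 5-fold or more included those at MT2A, a metallothionein (1939 bp, 23 tags, 7.13-fold), ABCC2 (6417 bp, 8.31-fold), ATXN1 (8139 bp, 7.91-fold) and ANXA2, an annexin (9629 bp, 39 tags, 7.81-fold). PERP, a membrane protein of desmosomes induced by p53, had a member of 1289 bp with its summit 182 bp past the end of the gene (24 tags, 8.37-fold).

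Along the gene, members were spread from start to end. Strand was known for 210 of the 246 inside genes. Each gene was divided into 5 equal parts, which from start to end held 51, 41, 43, 43 and 32 summits. The first part held 24.3% (95% interval 18.6 to 30.7%) and the last 15.2% (10.7 to 20.8%). Narrower peaks gave 23.5% and 18.7%, within the intervals of the members. Exons and introns were not used here.

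**Figure D3:**
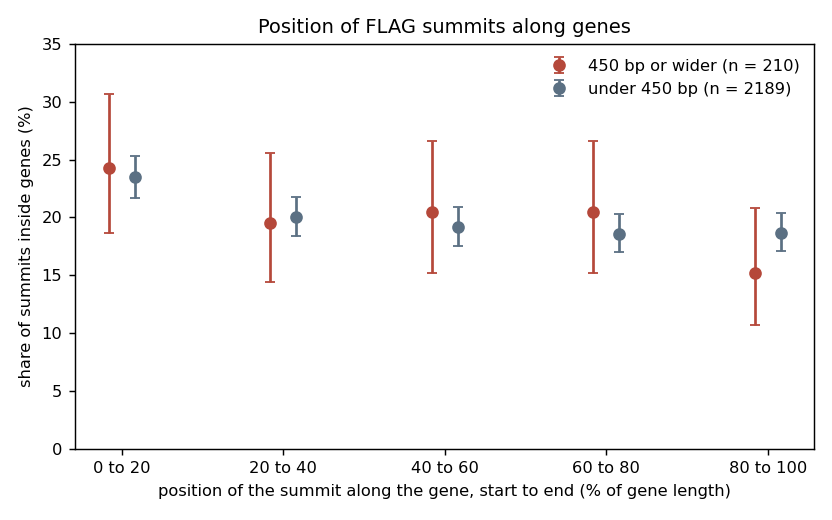
Share of summits inside protein-coding genes that fell in each of 5 equal parts of the gene, from start to end, for members (210 with known strand) and narrower FLAG peaks (2189); bars are 95% Clopper-Pearson intervals. The members run from 24.3% in the first to 15.2% in the last, and in each of the 5 the interval of the members contains the share of narrower peaks.

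Genes that held members inside them were long. The median length of the gene around a member was 164 kb, and around a narrower peak 149 kb. Protein-coding genes were ranked by length into 4 groups of equal number. In the longest group (65.2 kb and above) 180 of 4994 genes (3.60%) held a member, against 4 of 4994 (0.0801%) in the shortest. Per 100 Mb of summed gene length these were 18.1 and 19.7 genes, with 10.4 and 22.04 in the groups between. Genes with a narrower peak inside numbered 354, 199, 225 and 151 per 100 Mb, from the shortest to the longest group.

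Members rarely shared a gene. They were assigned to 292 genes in all, and 3 peaks lay inside more than 1 gene. Of these genes 13 had more than 1 member, 28 members in total. CP had 3, at 37.4-fold, 9.75-fold and 6.05-fold, the last of them 3625 bp outside the gene (chr3:149224836-149225693), over a span of 45.3 kb. No SMAD3 peak was listed in CP or within 10 kb of it. The member rule had already left out any SMAD3 summit within 10 kb of each of these 3, so this absence was partly set in advance. MACROD2, a very long gene known as a fragile site, also had 3, but over 1058 kb and at only 2.68-fold to 4.76-fold, with 1 of the 3 at a q under 0.05. It held 9 narrower FLAG peaks and 11 SMAD3 peaks as well. Both members in CRIM1, a membrane protein that binds BMPs (6.59-fold and 6.46-fold, 57.7 kb apart), and both in TNRC6A, a core protein of miRNA silencing (6.69-fold and 4.53-fold, 10.3 kb apart), had a q under 0.05. Other pairs lay at ABCB11, ATG10, DNM3, FRMD6, MBNL1, PIEZO2, RGPD5 and SH3BP4, and neither member at MBNL1 had a q under 0.05.

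Another FLAG peak of any width stood close to some members. The nearest other FLAG summit was within 10 kb for 59 of 304 (19.4%, 95% interval 15.1 to 24.3%), and within 1 kb for 27. Among narrower peaks near genes, 259 of 3226 (8.03%, 7.11 to 9.02%) had one within 10 kb, and among wide peaks far from genes 193 of 414 (46.6%, 41.7 to 51.6%). Medians were 73.3, 109 and 11.5 kb in the same order. These distances come from the list that chose the members, so they are not independent of width. Weak narrow peaks flanked several strong members. At HDX one of 272 bp with 7 tags had its summit 1.47 kb away, at FMNL2 one of 241 bp with 7 tags 0.608 kb away, and at CDH1 one of 287 bp with 11 tags 0.762 kb away. At ABCB11, the bile salt export pump, the neighbour was itself a member: 10 tags at 3.17-fold, 0.431 kb from the peak of 31 tags at 9.21-fold.

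**Figure D4:**
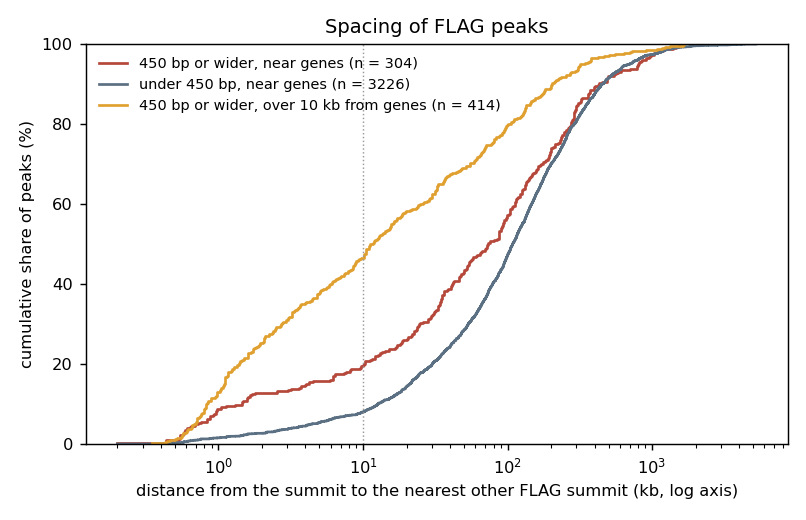
Cumulative share of peaks by distance from the summit to the nearest other FLAG summit (kb, log axis) for members, narrower FLAG peaks near genes and wide FLAG peaks over 10 kb from protein-coding genes; the dotted line marks 10 kb. At that distance the curves stand at 19.4%, 8.03% and 46.6%.

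A run of members on chromosome 2 lay at one gene family. These genes were picked after their values had been seen. RGPD genes are near-identical copies that join parts of RANBP2 and of GCC2, a golgin, and 7 members lay in or near GCC2 and 5 of the 7 RGPD genes in the annotation, where 1.6% of all genes had one. RGPD3 and RGPD4 had 0 FLAG peaks of any width. RANBP2, annotated over chr2:108719482-109842301, had 2 narrower ones and no member. These had 6 tags each and lay far inside that model, 372753 and 639461 bp from its start. Those at RGPD5 (18 tags, 7.17-fold), RGPD6 (17 tags, 7.12-fold), RGPD8 (19 tags, 4.65-fold) and GCC2 (20 tags, 7.03-fold) had their summits 5246, 5309, 5332 and 5519 bp downstream of the respective gene. A second member at RGPD5 had 8 tags (3.23-fold), 6084 bp downstream. RGPD1 (12 tags, 5.02-fold) and RGPD2 (17 tags, 4.19-fold) held 1 each inside the gene. Reads from such copies can be assigned to the wrong one, and how the authors treated reads with several matches is not given in the sources used here, although the headers name the aligned files as sorted and unique. The 7 may therefore count fewer separate sites.

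Gene by gene, members touched a small part of the genome. Of 19974 protein-coding genes, 320 (1.6%) had a member inside or within 10 kb, and 170 (0.851%) one with a q under 0.05. Over 19 gene lists with 508 distinct genes, 21 genes (4.13%) had a member and 16 had one with a q under 0.05. The listed genes were longer than others, with a median of 36.3 kb against 24.2 kb, and no list was tested.

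Lists of the cell cycle had almost no member. In the G1/S list 0 of 25 genes had one, in the G2/M list 0 of 25 and among cell cycle inhibitors 0 of 23, against 1.6% of all genes. Among 33 cyclins, CDKs and E2Fs there were 2, inside CDK14 (7 tags, 3.16-fold) and CDK19 (8 tags, 3.56-fold), neither with a q under 0.05. At that background fewer than 1 gene would be reached in a list of this size, so a count of 0 says little. Outside the lists, and chosen after its values were seen, CDC25B, a phosphatase that activates CDK1, had a member 5819 bp downstream (11 tags, 3.02-fold, −log10 q of 0.621).

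Among 38 components of the TGF-beta and BMP pathways, TGFBR3 was the only one with a member. None of 52 bHLH factors had a member. Of 30 epithelial junction and keratin genes 2 had one, CDH1 and PERP, while 0 of 25 mesenchymal and 0 of 30 lung lineage genes did. At the 1.6% of all protein-coding genes, lists of this size would hold fewer than 1 gene each, so counts of 0 or 1 say little. The epithelial share was 6.67% (Clopper-Pearson interval 0.818 to 22.1%), above 1.6%, although the interval includes that value. Both epithelial genes had a member with a q under 0.05, where 0.851% of all protein-coding genes did. A count of 2 is small, and none of these lists was tested.

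Secreted plasma proteins and NRF2 targets had 3 genes each. Among 30 acute phase and liver-type genes these were CP, ITIH2, which encodes a hyaluronan-binding plasma protein (975 bp, 28 tags, 10.9-fold, 2455 bp outside the gene), and SERPINA3, a serpin of the acute phase (13 tags, 5.17-fold, 1580 bp upstream). Among 34 NRF2 targets they were ABCC2, a drug efflux pump (957 bp, 21 tags, 8.31-fold, 6417 bp upstream), UGDH, which makes UDP-glucuronate (22 tags, 6.62-fold, inside) and TXNRD1, the thioredoxin reductase (14 tags, 4.32-fold, inside). All 6 genes had a member with a q under 0.05. The share was 10.0% (95% interval 2.11 to 26.5%) in the first list and 8.82% (1.86 to 23.7%) in the second, against 1.6% of all protein-coding genes, or 0.851% for members with a q under 0.05. Both lists were written with earlier results of these data known, and CP was then known to hold a strong peak. Neither list is therefore independent evidence, and neither was tested.

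Further lists held 0 to 2 genes, where 1.6% of all protein-coding genes had a member, or 0.851% one with a q under 0.05. Hypoxia genes had ENO1 (4.15-fold) and EGLN1, the oxygen sensor PHD2 (20 tags, 4.10-fold), out of 30. Receptor tyrosine kinase and RAS pathway genes had RASAL2 (22 tags, 8.25-fold) and RASA1 (8 tags, 2.59-fold) out of 30, both GTPase activators for RAS. Cytoskeleton and integrin genes had CALD1 (3.56-fold) out of 28. Neuronal genes had RBFOX1 (3.95-fold) and SYT1 (2.77-fold) out of 20. Blood cell genes (20) and fibroblast and endothelial genes (15) had 0. Members at RASA1, CALD1 and SYT1 did not have a q under 0.05 (−log10 q of 0.0, 0.779 and 0.0). The neuronal genes had a median length of 193 kb, against 24.2 kb for all protein-coding genes, and no list was tested.

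The share of near-gene FLAG peaks that were wide varied between chromosomes, on small counts. Only the 95% interval of chromosome 17 left out the share over all chromosomes. Over all, 304 of 3530 near-gene peaks away from SMAD3 (8.61%) were 450 bp or wider. Chromosome 17 had the lowest share, 6 of 184 (3.26%, 95% interval 1.21 to 6.96%), and chromosome 19 followed with 4 of 110 (3.64%, 1.0 to 9.05%). Chromosomes 13, 4 and 6 had the highest, 7 of 42 (16.7%, 6.97 to 31.4%), 13 of 84 (15.5%, 8.51 to 25.01%) and 15 of 101 (14.9%, 8.56 to 23.3%). On chromosome 4 all 13 members had a q under 0.05, and on chromosome 20 only 3 of 13 did, against 52.6% of all members. None did on chromosomes 19 and 22, which had 4 and 2 members. Chromosome copy number in A549 was not used here. By number, chromosomes 1 and 2 had 28 members each and chromosome 10 had 25, or 34.1 per 1000 protein-coding genes, against 2.76 on chromosome 19.

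**Figure D5:**
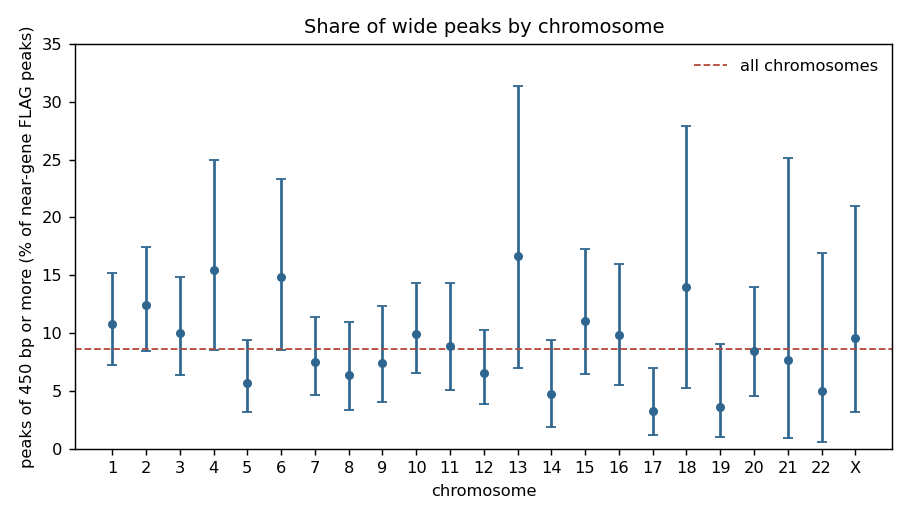
Share of near-gene FLAG peaks away from SMAD3 that were 450 bp or wider, by chromosome, with 95% Clopper-Pearson intervals; the dashed line is the share over all chromosomes, 8.61%. Of the 23 intervals, that of chromosome 17 (1.21 to 6.96%) lies wholly below the line.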

How the data were processed

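The authors called peaks in each ChIP library against its own input with MACS2 2.2.7.1, per the file headers. The p threshold was 0.0065, and duplicate tags at one position were reduced to 1. Alignment was with Bowtie2 on hg38, per the submitters' processing notes. The deposited lists give the width of every peak, its summit pileup (a signal in tags) and a fold enrichment, which is the ratio of pileup plus 1 to local background plus 1. They also hold deposited −log10 values of p and of q. The headers say that q would not be calculated, yet the deposited column holds values, which were used as they stand.

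The SMAD3 list (16857119 ChIP tags kept, 17215727 for its input) served only to leave out peaks. Genes came from a RefSeq table of GRCh38.p14. Strand and starts came from a RefSeq promoter table that matched 15813 of 19974 protein-coding genes, so exact gene starts replaced gene ends where it had an entry. Distances, overlaps of 1 bp or more and Clopper-Pearson intervals were computed with scipy 1.17.1, numpy 2.4.6 and pandas 2.3.3 (Python 3.11.15). Overlaps equalled those of bedtools 2.31.1, and the code was tested on simulated data, where 200 of 200 planted peaks were assigned correctly. Members and gene lists were chosen with earlier results of these data known. Named genes are the 12 members of highest fold, the 5 widest, 12 at starts, genes with 3 or more members, up to 4 per gene list, members of extreme background, and those beside the width threshold. Others are named as examples picked after seeing their values. Alternatives varied the width, windows, gene set, q, background and pileup minimum. Results for some members and gene lists are not reported here.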

Additional observations from a re-analysis of the deposited data

How the results depend on the processing

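The number of members moved with the width minimum, to 481 at 400 bp, 126 at 600 bp and 25 at 1000 bp, and to 160 with a q under 0.05 and 83 with a −log10 q of 5 or more. It stayed within 1.5 times of 304 (240 to 438) with other gene windows, SMAD3 distances or all annotated genes. The share inside genes was 75.4% at 600 bp, 72.0% at 1000 bp, 75.6% with a q under 0.05 and 66.3% with a −log10 q of 5 or more. The share at gene starts was 15.1% within 3 kb and 7.23% with a −log10 q of 5 or more, and 7 other alternatives stayed within the interval of the main value. The share with another FLAG peak was 43.1% within 50 kb and 4.61% when only neighbours of 450 bp or more counted. The median fold was 5.56 at 600 bp and 8.37 at 1000 bp. Of the 21 listed genes with a member, 15 had the summit inside and 16 a q under 0.05. Leaving out peaks of 8 tags or fewer, gene ends in place of starts, and wide neighbours only were chosen after seeing the data. The cause of these shifts was not tested beyond the construction of each setting. No paired analysis was possible because each group has 1 library. None of the 98 members of 6 to 8 tags had a q under 0.05, and 1 library gives no check of them.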
